A study of Bos taurus with 18 samples.

Results

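The non-exosomal fraction of steer plasma (FC), that is, the circulating RNA left outside exosomes, was compared between 30 and 20 months of age. The comparison used 6 of the 18 small RNA libraries of the series, 3 at each age, and both ages came from the same 3 steers. Of the 1071 miRNAs in the table, 358 passed 5 CPM (normalized counts) in 3 or more of the 9 FC libraries, which include those at 25 months, and were tested. They were 338 known bovine miRNAs and 20 candidate miRNAs. Candidates keep their deposited numbers and are named candidate-miR.

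The animals were Japanese Black steers fattened on 1 farm under 1 feeding system, with no other treatment in the labels. Blood was taken from the jugular vein into EDTA tubes at about 20, 25 and 30 months, and a spin column kit separated exosomal RNA (EX) from FC RNA in each plasma sample. Age and time of collection moved together in every steer, so an effect of age and one of the collection cannot be told apart. The table lists miRNAs only, so it holds no protein or messenger RNA by which the fraction label could be checked.

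Mature miRNAs are short RNAs that guide Argonaute proteins to messenger RNAs, mainly through the seed at bases 2 to 8. In plasma outside vesicles they are carried by proteins such as Argonaute and by lipoproteins, and they reach it from blood cells, vessel lining, liver, gut and other tissues. A bulk plasma library cannot tell fewer cells releasing a miRNA from less miRNA released per cell. Several miRNAs are known for high levels in 1 kind of cell, for example miR-150 in lymphocytes, miR-122 in hepatocytes and the miR-200 family in epithelia.

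Among the 358 miRNAs, 25 were DE-miRNAs (FDR < 0.05 and |log2FC| > 1, where log2FC is the log2 fold change of 30 over 20 months), which is 6.98% of those tested. FDR values are from edgeR with Benjamini-Hochberg adjustment, and each log2FC is given ± its standard error. At 30 months 10 were higher (2.79%) and 15 were lower (4.19%). Other settings gave 53 (likelihood ratio test), 52 (no filter), 49 (DESeq2), 45 (CPM > 5 in all 9 libraries), 40 (mean of at least 50 CPM) and 2 (count rows as deposited). The higher ones included 2 candidate miRNAs, *bta-miR-11987*, the epithelial *bta-miR-141* and *bta-miR-200a*, *bta-miR-194* of gut and liver, and *bta-miR-29c*. The lower ones included *bta-miR-150*, *bta-miR-181a* and *bta-miR-181b* of lymphocytes, *bta-miR-142-3p* of blood cells generally, *bta-miR-92a*, *bta-miR-363*, *bta-miR-32* and *bta-let-7g*. The sequences of those the results turn on are given first, each 5′ to 3′ as the deposited count table lists it, with the seed in capitals.

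The first set holds the 3 miRNAs with the largest called rises and *bta-miR-885*, a liver miRNA that went from 1015 counts in all to 2, and their seeds are each found in no other miRNA of the table.
candidate-miR-40: gUCCGGUUguucuucucu
candidate-miR-38: aUAAUGAAcaauaaaacu
bta-miR-11987: cGAGGAAUcucugguggaggu
bta-miR-885: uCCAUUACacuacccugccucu

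The second set holds lymphocyte and blood cell miRNAs that were lower, with the other arm of the miR-142 hairpin, which was not called.
bta-miR-150: uCUCCCAAcccuuguaccagugu
bta-miR-181a: aACAUUCAacgcugucggugaguu
bta-miR-181b: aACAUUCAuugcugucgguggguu
bta-miR-142-3p: aGUGUUUCcuacuuuauggaug
bta-miR-142-5p: cAUAAAGUagaaagcacuac

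The third set holds the miR-200 family, in which the 2 called members share 1 seed and the other members another.
bta-miR-141: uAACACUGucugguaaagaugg
bta-miR-200a: uAACACUGucugguaacgauguu
bta-miR-200b: uAAUACUGccugguaaugaug
bta-miR-200c: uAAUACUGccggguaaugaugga
bta-miR-429: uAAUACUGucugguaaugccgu

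The fourth set holds the miR-29 and the miR-25/92 families, of which some members were called and others were not.
bta-miR-29a: cUAGCACCaucugaaaucgguua
bta-miR-29b: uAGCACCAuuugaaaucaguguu
bta-miR-29c: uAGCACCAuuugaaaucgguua
bta-miR-29d-3p: uAGCACCAuuugaaaucgauua
bta-miR-25: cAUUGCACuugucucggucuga
bta-miR-92a: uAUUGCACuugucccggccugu
bta-miR-32: uAUUGCACaugacuaaguugcau
bta-miR-363: aUUGCACGguauccaucugcg

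The FC libraries held 7222665 to 12088735 counts at 20 months and 3615234 to 4871908 at 30 months, so a floor of 3 counts lay at 0.248 to 0.415 CPM and at 0.616 to 0.830 CPM. Intervals and floors here cover counting error only, since PCR copies of 1 molecule are counted apart. Of the whole counts above 0, those of 1 to 3 made up 10.8 to 12.2% per library at 20 months and 2.92 to 4.30% at 30 months, so the smallest counts were scarcer in the 30 months libraries, and the part of this in the results was not tested. In the 30 months libraries, and in 1 at 25 months, counts below one point of the table were offset by a row against the CPM values. The 50 selected miRNAs this touched at 20 or 30 months, 5 of them called (*candidate-miR-38*, *candidate-miR-40*, *candidate-miR-6*, *bta-miR-885* and *bta-miR-92a*), take their counts from the CPM table. With the rows as deposited there were 2 DE-miRNAs.

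**Figure D1:**
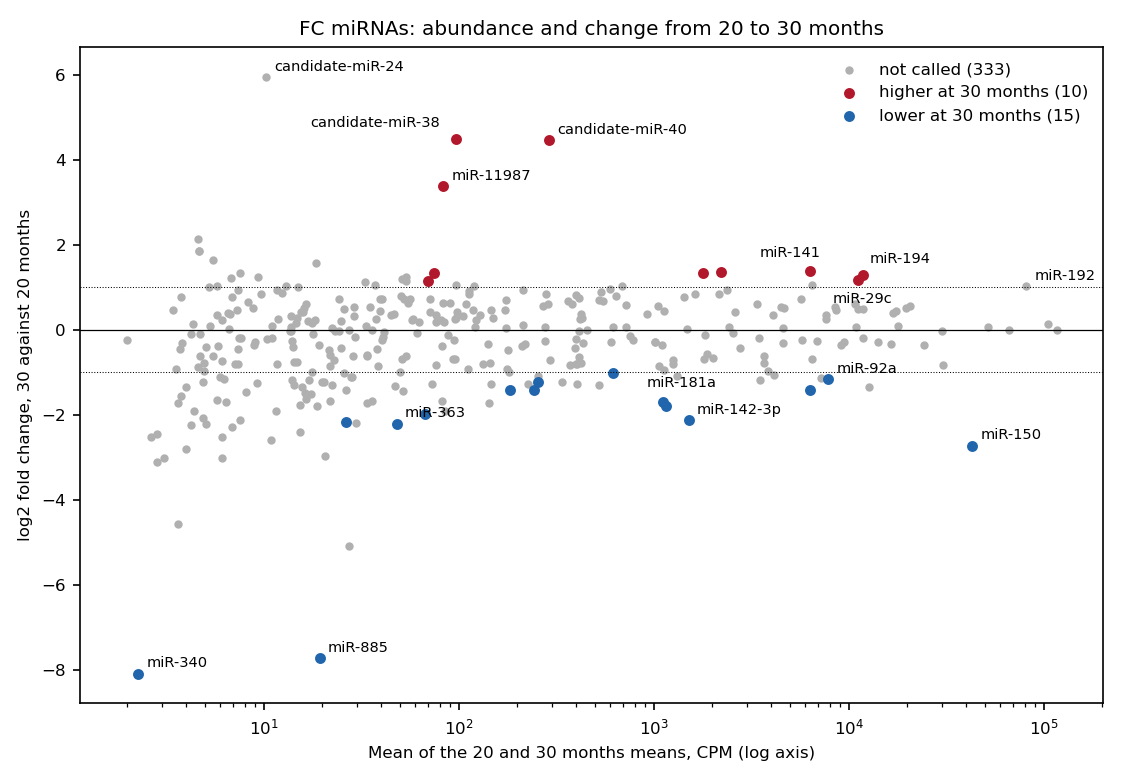
Each point is 1 of the 358 miRNAs selected in FC, with the mean of its 20 and 30 months CPM on a log axis against its log2 fold change at 30 against 20 months. Dotted lines mark a log2 fold change of 1 and −1. The 10 higher DE-miRNAs reach from 1.16 to 4.49, while *bta-miR-885* and *bta-miR-340*, with almost no counts at 30 months, lie near −8 at values that depend on the fit.

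All 25 DE-miRNAs changed in the same direction in the 3 steers, and for each of them no library at one age overlapped the other age. Both are descriptions, since the DE-miRNAs were chosen by a test on these same libraries. Over all 358 miRNAs, 14.8% had every 30 months library above every 20 months library and 22.1% had every one below. The median log2 fold change of the 358 was −0.12, and 104 had an unadjusted p under 0.05, of which 42 were higher and 62 lower. *bta-miR-1306* passed the FDR but stood at a log2FC of 0.95 ± 0.24 (FDR 0.0450) and was not counted. Leaving out 1 steer cut the number of DE-miRNAs to 1 (without steer 1), 5 (without steer 2) and 10 (without steer 3), and *candidate-miR-40* was the 1 miRNA called in every such fit.

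The 3 largest called rises belonged to short or little described RNAs. *candidate-miR-40* stood at 17.5, 36.7 and 23.6 CPM in steers 1, 2 and 3 at 20 months and at 431, 761 and 481 CPM at 30 months. The ages lay far apart in every steer (log2FC 4.46 ± 0.29, FDR 5.13e-05). *candidate-miR-38* went from 4.88, 17.6 and 6.32 CPM to 169, 219 and 167 CPM (log2FC 4.49 ± 0.46, FDR 0.000984). The 30 months libraries lay close together, and steer 2 was the highest at both ages for both candidates.

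*bta-miR-11987* stood at 10.7, 27.1 and 9.96 CPM at 20 months and 112, 192 and 148 CPM at 30 months (log2FC 3.38 ± 0.38, FDR 0.00161). Steer 2 was again the highest at each age, and the ages were far apart. Both candidates are 18 bases long, and 6 of the 358 selected miRNAs are that short or shorter. *candidate-miR-24*, of the same length, had 0, 0 and 0.857 CPM at 20 months and 26.5, 25.2 and 8.94 CPM at 30 months, and was not called (FDR 0.0743), although 5 of 9 alternatives that kept the 3 steers called it. It passed the filter with no 20 months library above 5 CPM, and the part of the filter in its rise was not tested. Of the 20 selected candidate miRNAs, 2 were called higher and 1 lower, against 2.79% and 4.19% of all 358. Their median log2 fold change was 0.07 against −0.12, and they held 925 to 1845 CPM per library at 20 months and 1396 to 2118 CPM at 30 months.

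Among epithelial miRNAs, *bta-miR-141* and *bta-miR-200a* rose. *bta-miR-141* stood at 3416, 3717 and 3297 CPM at 20 months and at 7340, 12345 and 7807 CPM at 30 months (log2FC 1.38 ± 0.27, FDR 0.0270). *bta-miR-200a* went from 1089, 995 and 940 CPM to 1999, 3268 and 2428 CPM (log2FC 1.35 ± 0.26, FDR 0.0270). In both, the 20 months libraries were nearly equal and steer 2 was the highest at 30 months.

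The miR-200 family holds epithelial cells in their state by repressing the transcription factors ZEB1 and ZEB2. *bta-miR-200b*, *bta-miR-200c* and *bta-miR-429*, with the other seed, had log2FC values of 1.03, 0.97 and 0.89 and missed the threshold (FDR 0.0684, 0.0713 and 0.0713), with *bta-miR-200b* called in 3 of 12 alternatives that kept the 3 steers. Of *bta-miR-200a* and *bta-miR-200b*, which differ by the substitutions C4U, U9C and C17U (positions from the 5′ end, base of *bta-miR-200a* first), 1 was therefore called, but the difference between them was not tested. Of the 8 epithelial miRNAs selected of 9 listed, 2 were called higher, against 2.79% of all 358, and none lower. All 8 had a log2 fold change above 0, as did 45.5% of the 358, and the median was 1.04 against −0.12. Their sum was 6023 to 6835 CPM per library at 20 months and 11837 to 20052 CPM at 30 months. *bta-miR-205*, known from squamous and glandular epithelia, stood apart with a log2 fold change of 0.06 (FDR 0.913).

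*bta-miR-194*, known with miR-192 and miR-215 from the gut lining and the liver, stood at 6060, 7746 and 6180 CPM at 20 months and 10799, 26514 and 13897 CPM at 30 months (log2FC 1.28 ± 0.26, FDR 0.0300). Steer 2 was again the highest at 30 months, and the call was lost without steer as a term. *bta-miR-192*, the third most abundant FC miRNA at 30 months by mean, went from 55537, 60050 and 46632 CPM to 92619, 123869 and 111051 CPM with no overlap of the ages, but narrowly missed the threshold (log2FC 1.04 ± 0.27, FDR 0.0536), and 5 of 12 such alternatives called it. *bta-miR-215*, which shares the seed of *bta-miR-192* and differs from it by the substitutions C1A and C20A (base of *bta-miR-192* first), had a log2FC of 0.57 (FDR 0.179). The 3 selected members of this list summed to 69541 to 82887 CPM per library at 20 months and 127293 to 176369 CPM at 30 months.

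miR-29 represses collagens and other matrix proteins and the DNA methyltransferases DNMT3A and DNMT3B. *bta-miR-29c* stood at 7704, 6005 and 6892 CPM at 20 months and 16210, 17246 and 13041 CPM at 30 months (log2FC 1.18 ± 0.23, FDR 0.0270). *bta-miR-29d-3p*, which differs from it by the single substitution G19A, rose from 44.4, 44.0 and 37.1 CPM to 128, 118 and 75.6 CPM (log2FC 1.34 ± 0.32, FDR 0.0405). All libraries at 30 months lay above those at 20 months for both. The *bta-miR-29d-3p* call was lost with the 6 libraries at 20 and 30 months alone and with looser or no filtering. Their counts include reads divided among near-identical miRNAs, so the members cannot be fully told apart.

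*bta-miR-29a* and *bta-miR-29b* had log2FC values of −0.02 and 0.02 (SE 0.34 and 0.31, FDR 0.974 each). The deposited *bta-miR-29a* has 1 further base at its 5′ end, which moves its bases 2 to 8 by 1, and in the stretch it shares with *bta-miR-29c* the 2 differ by U10C alone. The log2 ratio of *bta-miR-29c* to *bta-miR-29a* went from −2.15, −2.44 and −1.83 to −0.96, −0.87 and −1.06, a mean change of 1.17 ± 0.40 (SD, n = 3 steers). The ratio to *bta-miR-29b* changed by 1.16 ± 0.11 on the same log2 scale. Each ratio was higher at 30 months in 3 of 3 steers, and the exact two-sided sign-flip test gave p = 0.25 for each, the smallest p that 3 steers allow.

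*bta-miR-125a*, of the family of the first miRNA found to time development in worms, stood at 1419, 1163 and 1176 CPM at 20 months and at 3016, 2624 and 3899 CPM at 30 months (log2FC 1.37 ± 0.30, FDR 0.0300). It rose in each steer, with all 30 months libraries above those at 20 months. *bta-miR-125b*, with the same seed, had a log2FC of 0.44 (FDR 0.210). *bta-miR-2285t*, of a ruminant family with many copies in the genome, went from 37.2, 56.5 and 32.8 CPM to 76.6, 148 and 66.3 CPM (log2FC 1.16 ± 0.29, FDR 0.0450). Its ages did not overlap, and its counts include shared reads. The call held in 5 of 12 alternatives that kept the 3 steers.

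The lower DE-miRNAs were led in amount by *bta-miR-150*, which is abundant in mature B and T lymphocytes and represses the transcription factor MYB. It stood at 78022, 78932 and 65258 CPM at 20 months and at 18750, 7188 and 9629 CPM at 30 months (log2FC −2.72 ± 0.59, FDR 0.0300). Each steer lost most of it, steer 1 the least and steer 2 the most, with log2 changes of −1.97, −3.62 and −2.66 in steers 1, 2 and 3. DESeq2 did not call it.

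*bta-miR-181a*, which tunes the signal of the T cell receptor, fell from 1863, 1554 and 1721 CPM to 610, 507 and 457 CPM (log2FC −1.69 ± 0.31, FDR 0.0270). *bta-miR-181b* fell from 303, 235 and 262 CPM to 114, 87.8 and 97.5 CPM (log2FC −1.41 ± 0.27, FDR 0.0270). Both had tight libraries at each age, and the substitutions between them, A9U, C10U and A21G, lie outside the shared seed. Of the 7 lymphocyte miRNAs, all selected, 3 were called lower, against 4.19% of all 358, and none higher. All 7 had a log2 fold change below 0, as did 54.5% of the 358, and the median was −1.47 against −0.12. They summed to 83152 to 104156 CPM per library at 20 months and 15933 to 28770 CPM at 30 months.

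*bta-miR-342*, also of lymphocytes, went from 22426.5, 18003.5 and 14097 CPM to 8176, 7463 and 5759 CPM without overlap and was not called (log2FC −1.35 ± 0.47, FDR 0.103), although 6 of 12 alternatives that kept the 3 steers called it (FDR 0.00597 to 0.116 over the 12). *bta-miR-155*, which rises in activated lymphocytes and macrophages, had a log2FC of −1.08 (FDR 0.103) and was called in 5 of the 12. *bta-miR-181c* and *bta-miR-181d*, both near 10 CPM at 20 months, had log2FC values of −1.47 and −3.03 (FDR 0.143 and 0.187).

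miR-142 is made in blood cells of all lineages. In FC its 3p arm, *bta-miR-142-3p*, measured 1931, 2880 and 2559 CPM at 20 months and 826, 381 and 486 CPM at 30 months (log2FC −2.12 ± 0.46, FDR 0.0300). From the other arm of the hairpin, *bta-miR-142-5p* measured 40289, 40136 and 36857 CPM and then at 26148, 20119 and 20216 CPM and was not called (log2FC −0.82 ± 0.37, FDR 0.173). The log2 ratio of the 3p to the 5p arm went from −4.38, −3.80 and −3.85 to −4.98, −5.72 and −5.38, a mean change of −1.35 ± 0.68 (SD, n = 3 steers), lower in 3 of 3 steers (exact two-sided sign-flip test, p = 0.25, the smallest p possible).

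Both arms were selected for 30 hairpins, and at least 1 arm was called in 3 of them, against 6.98% called of all 358 miRNAs. Besides miR-142 these were *bta-miR-6119-5p*, which fell from 304, 358 and 408 CPM to 172, 133 and 152 CPM (log2FC −1.22 ± 0.26, FDR 0.0300) with *bta-miR-6119-3p* at −0.997 (FDR 0.0804), and miR-29d, whose 5p arm had a log2FC of 0.25 (FDR 0.855) at about 10 CPM. In no hairpin were both arms called, and the *bta-miR-6119-5p* call was lost with the 6 libraries at 20 and 30 months alone.

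In the miR-25/92 family, *bta-miR-32* and *bta-miR-92a* fell and *bta-miR-25*, of the same seed, did not pass the test. *bta-miR-92a*, of the miR-17-92 cluster and abundant in red cells, stood at 11918, 9176 and 11585 CPM at 20 months and 5973, 3902 and 4728 CPM at 30 months (log2FC −1.16 ± 0.28, FDR 0.0405). *bta-miR-32* went from 1954, 1930 and 1532 CPM to 614, 491 and 462 CPM (log2FC −1.80 ± 0.40, FDR 0.0300). The ages were well apart for both, with steer 1 the highest at 30 months, and the *bta-miR-92a* call was lost with RLE size factors.

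*bta-miR-25* had a log2FC of 0.09 (SE 0.26, FDR 0.855), and its log2 ratio to *bta-miR-92a* went from 0.54, 0.74 and 0.75 to 1.94, 1.91 and 1.96, a change of 1.26 ± 0.12 (SD, n = 3 steers; exact two-sided sign-flip test, p = 0.25, the smallest p possible). The pair differs by U1C, C14U, C18U and U22A (base of *bta-miR-92a* first), so the seed is untouched. *bta-miR-92b*, which also has the seed, had a log2FC of −0.93 (FDR 0.0804). *bta-miR-363*, of a paralogous cluster, fell from 78.5, 91.1 and 66.6 CPM to 25.5, 16.6 and 10.3 CPM (log2FC −2.21 ± 0.43, FDR 0.0270). Its deposited sequence lacks the first U of *bta-miR-92a*, so the letters of that seed stand 1 base nearer to its 5′ end and its bases 2 to 8 differ. Of the 15 miRNAs of the miR-17-92 cluster and its paralogs, 2 were called lower, against 4.19% of all 358, and none higher. Their median log2 fold change was −0.81 against −0.12, and *bta-miR-106b*, not called, was called in 5 of 12 alternatives that kept the 3 steers.

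*bta-let-7g*, of the let-7 family that represses LIN28 and HMGA2, fell from 9137, 9376 and 9262 CPM to 4064, 2712 and 3700 CPM (log2FC −1.43 ± 0.35, FDR 0.0450). The 3 libraries at 20 months were nearly identical, and the call was lost with RLE size factors. It was the 1 member called of 9, against 4.19% called lower of all 358. Of the others, *bta-let-7f* and *bta-let-7d* had log2FC values of −1.17 and −0.86 (FDR 0.0748 and 0.0759) and *bta-let-7b* one of 0.07 (FDR 0.878). The *bta-let-7f* change was called in 6 of 12 alternatives that kept the 3 steers. The median of the 9 was −0.78 against −0.12 over all 358, and all 9 include shared reads.

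*bta-miR-222*, which represses the receptor KIT and the cell cycle inhibitor CDKN1B, fell from 921, 740 and 813 CPM to 388, 498 and 352 CPM (log2FC −1.01 ± 0.22, FDR 0.0300). It lay just past the fold threshold, and the call was lost under 5 alternatives besides the rows as deposited, among them the fit without steer as a term. *bta-miR-221*, with the same seed and 7636 CPM on average at 20 months, had a log2FC of −0.26 (FDR 0.547). The log2 ratio of *bta-miR-222* to *bta-miR-221* changed by −0.76 ± 0.26 (SD, n = 3 steers) and was lower in 3 of 3 steers (exact two-sided sign-flip test, p = 0.25, the smallest p possible). *bta-miR-139* fell from 124, 120 and 78.5 CPM to 31.4, 26.3 and 23.7 CPM (log2FC −1.99 ± 0.41, FDR 0.0300), and *bta-miR-2285bf* from 280, 441 and 344 CPM to 124, 142 and 126 CPM (log2FC −1.43 ± 0.32, FDR 0.0300). Neither had overlapping libraries, and the counts of *bta-miR-2285bf* include shared reads.

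2 DE-miRNAs were nearly or fully without counts at 30 months. *bta-miR-885*, known from liver, had 327, 481 and 207 counts at 20 months and 0, 0 and 2 at 30 months, or 1015 against 2 in all (FDR 0.00579). Relative to library totals this was 218-fold lower (95% interval 60.1 to 1800, for counting error only). At the 20 months rate 173, 128 and 135 counts were expected in the 30 months libraries of steers 1, 2 and 3. Among the 88 selected miRNAs with a 20 months mean within a factor of 2 of its own, 19.3 to 77.2 CPM, *bta-miR-885* was the 1 with at most 2 counts in all libraries at 30 months, and 10 had a library at 0. The other hepatocyte miRNA, *bta-miR-122*, at 39474, 121516 and 42706 CPM at 20 months, had a log2FC of −0.01 (SE 0.45, FDR 0.994) and overlapping ages.

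*bta-miR-340* had 29, 37 and 57 counts at 20 months and 0 in each library at 30 months, at least 17.6-fold lower against a floor of 3 counts over the group (FDR 0.0450). The call was lost in 4 of 10 alternatives that kept the 3 steers, namely the 6 libraries at 20 and 30 months alone, DESeq2, RLE size factors and the rows as deposited, with FDR up to 0.143. The expected numbers were 20.9, 15.5 and 16.3 counts. Whole counts of 1 to 3, as given above, were scarce in the same libraries, and the part of this in the call was not tested. 9 selected miRNAs had no 30 months library above 5 CPM, and *bta-miR-885* and *bta-miR-340* were the ones called among them. They passed the filter through the earlier ages alone, and the part of the filter in their falls was not tested. Another 4 were selected through the 30 months libraries alone and none of these was called. *candidate-miR-6* fell from 43.4, 48.9 and 35.8 CPM to 5.65, 13.6 and 11.1 CPM (log2FC −2.16 ± 0.45, FDR 0.0300), and its counts include shared reads. Its call was lost with the 6 libraries at 20 and 30 months alone.

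Between 25 and 20 months 0 of 358 miRNAs were called by edgeR (0.0%), with 13 at an unadjusted p under 0.05. Of the 10 higher DE-miRNAs, 9 had a 25 months mean nearer to 20 than to 30 months on the log2 scale, and for 8 every 25 months library lay below every 30 months library. *bta-miR-125a*, the other one, lay about midway between the ages, at 2177 ± 1050 CPM (SD, n = 3) at 25 months against 1253 ± 144 and 3179 ± 653 CPM at 20 and 30 months. Of the 15 lower DE-miRNAs all had a 25 months mean nearer to 20 months on that scale, and in all every 25 months library lay above every 30 months library. Over all 358 miRNAs, 20.7% had every 25 months library below those at 30 months and 21.8% had every one above. The DE-miRNAs were chosen for a difference at 30 months, and the 25 months libraries were part of the same fit, so these counts are a description. In 13 of the 15 the 25 months mean was above that at 20 months, but in 6 without the 25 months library of steer 3, an alternative chosen after seeing the data. Steer 3 at 25 months stood apart, with 194329 CPM of *bta-miR-150* against 65415 and 74961 CPM in the other steers and with the lowest *bta-miR-141*, 1910 CPM.

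**Figure D2:**
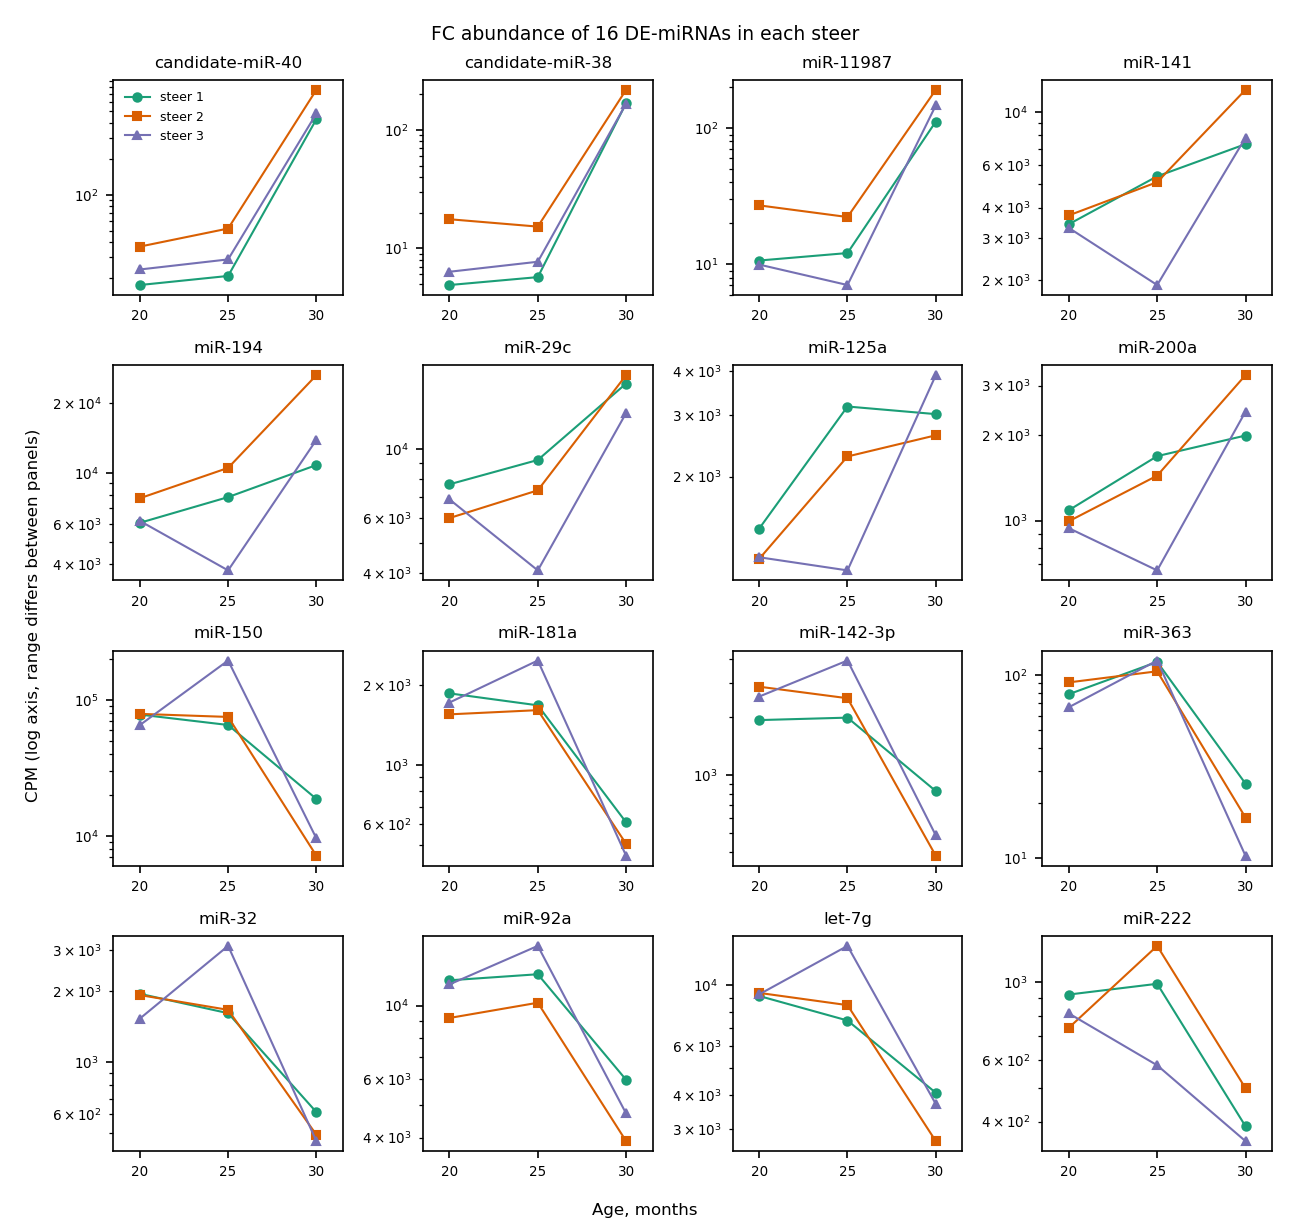
Each panel gives the CPM of 1 DE-miRNA on a log axis at 20, 25 and 30 months, with 1 line per steer. The upper 8 panels rose and the lower 8 fell. The 30 months points lie beyond all 20 months points in every panel, and steer 3 at 25 months is often the farthest from the other steers.

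The fold changes of all selected members of 8 families are plotted by family, and differences between members were tested only as the ratios per steer given above, at the smallest p that 3 steers allow. The 25 DE-miRNAs have 21 different seeds, 4 of the seeds belong to 2 DE-miRNAs each, and no seed had DE-miRNAs in both directions. The 4 pairs are *bta-miR-141* with *bta-miR-200a*, *bta-miR-29c* with *bta-miR-29d-3p*, *bta-miR-181a* with *bta-miR-181b*, and *bta-miR-32* with *bta-miR-92a*. Reads are divided among near-identical miRNAs in 12 of the DE-miRNAs, 6 of 10 higher and 6 of 15 lower, and in 158 of the 358, so miRNAs that share reads are not independent measurements. *bta-miR-32* is not among the 12, and its counts at 20 and 30 months are whole.

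**Figure D3:**
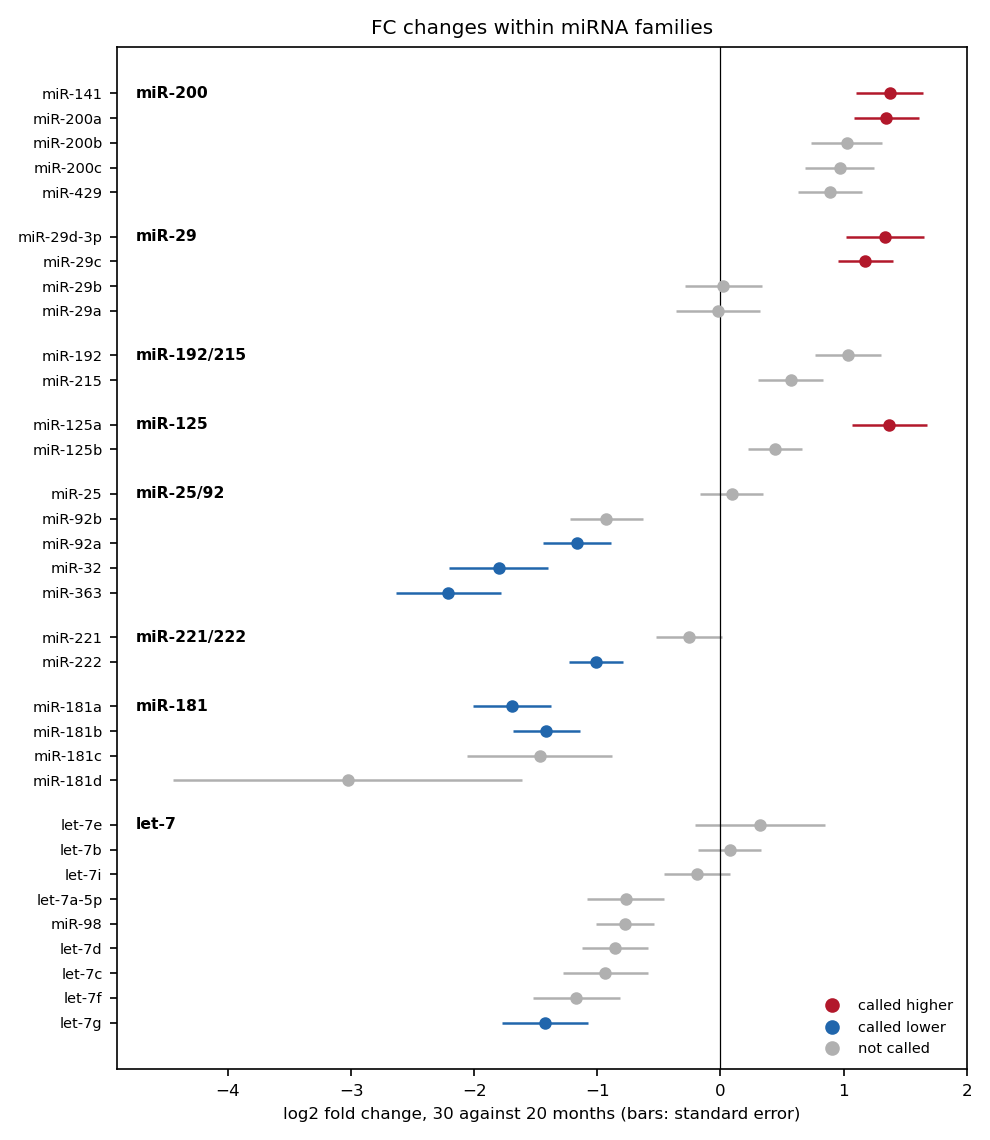
The log2 fold change of each selected member of 8 families at 30 against 20 months, with its standard error as a bar. Within the miR-29 family 2 members stand near 1.2 and 2 near 0, and within the miR-25/92 family *bta-miR-25* stands near 0 and *bta-miR-363* at −2.21.

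Neighbouring genes were taken from the RefSeq table of the cattle assembly ARS-UCD2.0, which matched 323 of the 338 known miRNAs by name. Its assembly is not the one the reads were mapped to, so no positions are given. Within 10000 bases of *bta-miR-200a* lie the genes of *bta-miR-200b* and *bta-miR-429*, and near *bta-miR-141* lies that of *bta-miR-200c*. These neighbours had log2FC values of 0.89 to 1.03. The 2 loci of *bta-miR-194* lie near *bta-miR-192* and *bta-miR-215*. *bta-miR-29c* neighbours *bta-miR-29b* (0.02), *bta-miR-222* neighbours *bta-miR-221* (−0.26), and *bta-miR-125a* neighbours *bta-miR-99b* and *bta-let-7e* (0.74 and 0.32). *bta-miR-92a* neighbours 6 selected miRNAs of its cluster, from *bta-miR-20a* at −0.96 (FDR 0.0551) to *bta-miR-17-3p* at 0.44. The *bta-miR-181a* and *bta-miR-181b* genes were the 1 pair of neighbours in which both were called.

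By amount, *bta-miR-150* had the largest loss and *bta-miR-192* the largest gain of mean CPM among the selected miRNAs. Summed over the selected miRNAs, mean CPM fell by 168121 in those that lost and rose by 168176 in those that gained. *bta-miR-150* made up 37.0% of the losses, going from 74071 ± 7646 to 11855 ± 6094 CPM (SD, n = 3). *bta-miR-192* made up 32.8% of the gains, from 54073 ± 6828 to 109179 ± 15709 CPM. The next losses were those of *bta-miR-142-5p*, *bta-miR-342*, *bta-miR-30e-5p*, *bta-miR-92a* and *bta-let-7g* (−16933, −11043, −6115, −6026 and −5767 CPM), and the next gains those of *bta-miR-21-5p*, *bta-miR-194*, *bta-miR-29c*, *bta-miR-215* and *bta-miR-486* (11528, 10408, 8632, 7827 and 6519 CPM). Of these 12, the DE-miRNAs were *bta-miR-150*, *bta-miR-92a*, *bta-let-7g*, *bta-miR-194* and *bta-miR-29c*. The 10 higher DE-miRNAs together held 1.86 to 1.98% of a library at 20 months and 4.03 to 6.34% at 30 months, and the 15 lower ones 9.40 to 10.7% and 1.61 to 3.17%.

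The other lists of blood and tissue miRNAs were described in the same way. Of 6 myeloid miRNAs, 1 was called lower (*bta-miR-142-3p*), against 4.19% of all 358, and the myeloid marker *bta-miR-223*, at 62126, 28014 and 62526 CPM at 20 months and 59516, 49492 and 48799 CPM at 30 months, had a log2FC of 0.08 (FDR 0.926). The list summed to 72996 to 105654 CPM and 70331 to 87438 CPM. Of 7 red cell miRNAs, *bta-miR-92a* and *bta-miR-363* were called lower, against the same 4.19%, and the sums overlapped, at 140841 to 213467 CPM and 121292 to 205502 CPM.

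The log2 ratio of *bta-miR-451*, made in red cells, to *bta-miR-23a*, which is read in plasma as a sign of red cell lysis, was −1.79, 0.27 and 0.70 at 20 months and −0.40, −1.24 and −0.88 at 30 months. It was higher at 30 months in steer 1 and lower in the other steers, a mean change of −0.57 ± 1.70 (SD, n = 3 steers; exact two-sided sign-flip test, p = 0.5). The same ratio with *bta-miR-486*, also of red cells, was higher at 30 months in 3 of 3 steers, by 2.77, 0.26 and 0.10, so the direction depended on the red cell miRNA used. *bta-miR-23a* itself had a log2FC of −0.35 (FDR 0.329), and *bta-miR-93*, the qPCR control of the study, one of 0.40 with overlapping ages.

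Of the 5 muscle miRNAs selected of 7 listed, 0 were called by edgeR, against 6.98% of all 358, and none had an FDR below 0.289. Their sums were 123.1 to 396.5 CPM and 199 to 342 CPM. The endocrine *bta-miR-375* and *bta-miR-7* had log2FC values of 0.85 each (FDR 0.0652 and 0.0859) with no overlap of the summed libraries, 1283 to 1877 CPM and 2265 to 3587 CPM. The 4 vessel wall miRNAs, miR-126 of endothelium and miR-143 and miR-145 of smooth muscle, had no call, against the same 6.98%, and a median of 0.61. In the imprinted DLK1-DIO3 cluster 20 of 55 miRNAs were selected and none was called, against the same 6.98%. Its median was −0.12, as over all 358. No member was called, against the same 6.98% of all 358, of the miR-30, miR-15/16, miR-26, miR-23/24/27, miR-103 with miR-107 and miR-378, miR-148 with miR-152, miR-130 with miR-301, and miR-374 lists, with medians from −1.49 (miR-374) to 0.61 (miR-148 with miR-152). Among their members with |log2FC| above 1, *bta-miR-30b-5p*, *bta-miR-30c* and *bta-miR-374a* had the smallest FDR, with log2 fold changes of −1.29, −1.28 and −1.30 (FDR 0.0743, 0.0743 and 0.0748). Of the 12 alternatives that kept the 3 steers, 7 called *bta-miR-30c*, 6 each *bta-miR-374a* and *bta-miR-374b*, 5 *bta-miR-30b-5p*, and 4 each *bta-miR-26a* and *bta-miR-424-5p*, so the absence of calls in these lists rests on the fit used. Of 28 selected miRNAs of the miR-2284 and miR-2285 list 1 was called in each direction, against 2.79% higher and 4.19% lower of all 358, and of 8 of the list of miR-10, miR-99, miR-100 and miR-125 *bta-miR-125a* was the 1 called, against the same 2.79% higher.

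**Figure D4:**
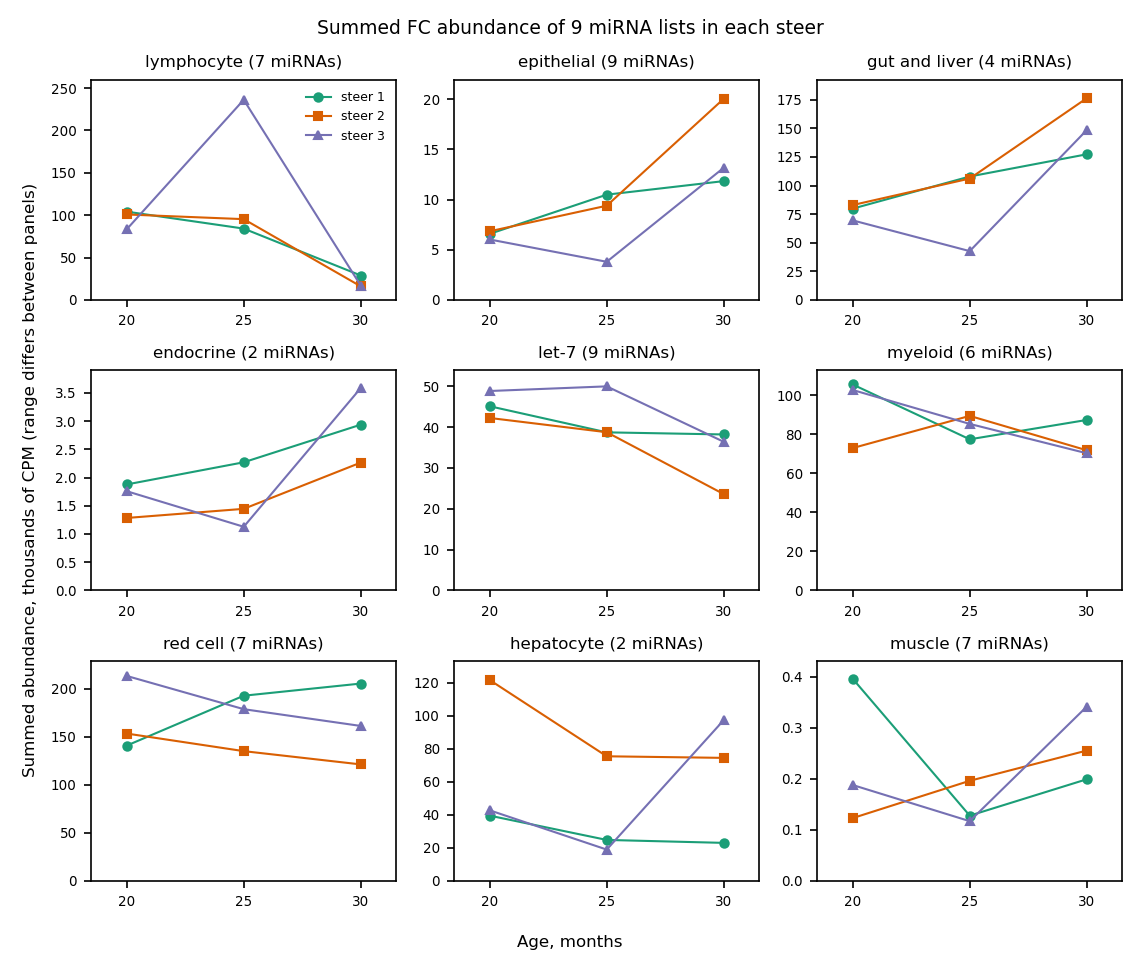
Summed CPM of the listed members of 9 lists at 20, 25 and 30 months on linear axes from 0, with 1 line per steer and the number of miRNAs in the table in each title. The lymphocyte sums at 30 months lie below all others, the epithelial and gut and liver sums at 30 months lie above those at 20 months, and the myeloid, red cell, hepatocyte and muscle sums overlap between ages.

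In the exosomal fraction of the same plasma samples 46 of 345 miRNAs (13.3%) were called between 30 and 20 months, and 23 of the 25 FC DE-miRNAs were tested there. Called in both were 9, that is 36% of the FC DE-miRNAs and 19.6% of those in EX: *candidate-miR-38* and *candidate-miR-40*, higher in both, and *bta-miR-150*, *bta-miR-181a*, *bta-miR-142-3p*, *bta-miR-32*, *bta-miR-92a*, *bta-miR-2285bf* and *candidate-miR-6*, lower in both. *candidate-miR-40* stood at 381, 313 and 462 CPM in EX at 20 months and 3978, 7173 and 3490 CPM at 30 months. The difference between its rise in FC and that in EX was 1.32 on the log2 scale (SE 0.36, FDR 0.0373), and of 9 alternatives it passed the FDR only with a block by plasma sample.

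The change differed between the fractions for 25 of 330 miRNAs (7.58%) selected in both, with 82 at an unadjusted p under 0.05, and 3 of the 25 were FC DE-miRNAs (*candidate-miR-40*, *candidate-miR-6* and *bta-miR-181b*). The count depended on the fit, with 61 by a block for the plasma sample, 42 by DESeq2, 2 at a mean of at least 50 CPM (*bta-miR-1246* and *bta-miR-320a*) and 0 by edgeR without steer 1, where 43 had an unadjusted p under 0.05. *bta-miR-181b* fell in FC but stood in EX at 332, 250 and 4720 CPM at 20 months and 6859, 13829 and 10326 CPM at 30 months, a difference of −3.90 (FDR 0.0365) that missed the FDR at a mean of at least 50 CPM (0.0511) and without steer 1 or steer 2 (0.245 and 0.262). The *candidate-miR-6* difference also missed it without steer 1 or steer 2. *bta-miR-181a* did not show this, with log2 fold changes of −1.69 in FC and −2.03 in EX. In 17 of the 25 every EX library at 30 months had 0 counts, in libraries of 991354 to 1988408 counts, and the part of depth in these differences was not tested. The 9 miRNAs *bta-miR-150*, *bta-miR-141*, *bta-miR-200a*, *bta-miR-29c*, *bta-miR-125a*, *bta-let-7g*, *bta-miR-222*, *bta-miR-92a* and *bta-miR-32* had an FDR of 0.120 or more for the difference. *bta-miR-194* was not tested in EX, where it was listed at 5472, 5793 and 0 CPM at 20 months and at 0 in each library at 30 months. At these ages *bta-miR-181b* stood at 4720 CPM or more in the EX libraries where *bta-miR-194* was listed at 0. In the other EX libraries *bta-miR-181b* stood at 332 and 250 CPM. Whether values of these miRNAs were exchanged was not tested, and the *bta-miR-181b* difference is given with this limit.

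**Figure D5:**
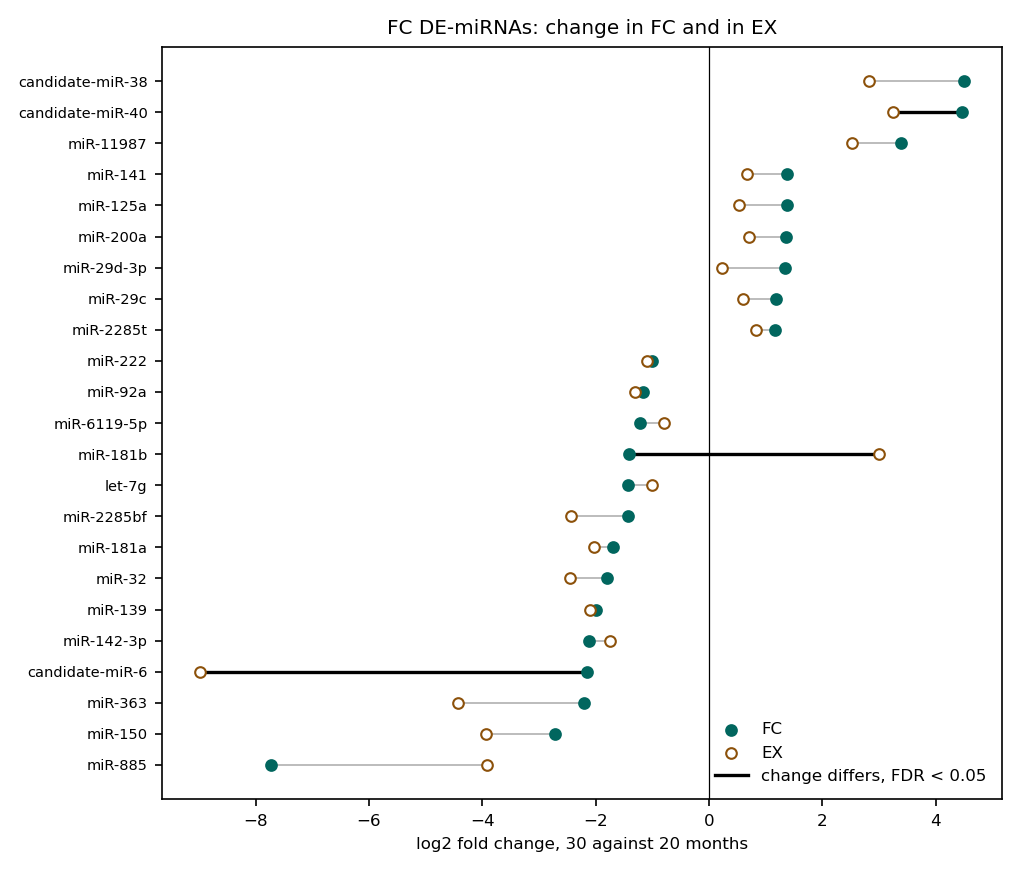
Log2 fold changes at 30 against 20 months in FC (filled) and EX (open) for the 23 FC DE-miRNAs tested in both, with a black line where the change differed at FDR < 0.05. *candidate-miR-40*, *bta-miR-181b* and *candidate-miR-6* have black lines, and the EX value of *candidate-miR-6* rests on 0 counts at 30 months and depends on the fit. The EX value of *bta-miR-181b* rests on high values in libraries where *bta-miR-194* was listed at 0.

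The median length was 22 bases in the higher and in the lower DE-miRNAs and over all 358 miRNAs, and 2 of the 10 higher, 0 of the 15 lower and 6 of all 358 had at most 18 bases. The median GC content was 40.0% in the higher and 45.8% in the lower ones against 45.6% over all. Across the 358 miRNAs, which share libraries and are not independent, GC content and log2 fold change had r = 0.10 and rho = 0.17, a weak relation given as a description. At the selection limit, *bta-miR-2285bt* was just inside with its third-highest library at 5.17 CPM and *candidate-miR-25* just outside at 4.98 CPM, and 20 miRNAs were selected with exactly 3 libraries above 5 CPM.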

How the data were processed

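The submitters' processing notes name FastQC 0.12.1, Trimmomatic 0.39, cutadapt 5.0 and edgeR 4.0.16. By the study's methods the authors mapped single-end small RNA reads with miRDeep2 to a Japanese Black genome built on ARS-UCD1.2, and deposited counts per mature miRNA, here read as estimated counts since many are not whole, and CPM values. The CPM table carries a Total row, which was left out.

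In 4 FC libraries, counts that did not match CPM times the library total (relative tolerance 0.001 or 0.02 counts) were recomputed from the CPM table. Counts were rounded, filtered (CPM > 5 in at least 3 of 9 libraries), normalized by TMM (factors 0.734 to 1.17) and tested in edgeR 4.0.16 (R 4.3.3, limma 3.58.1) by the quasi-likelihood method on all 9 FC libraries with terms for age and for steer, and Benjamini-Hochberg adjustment over 358 miRNAs. Standard errors are |log2 fold change| over the root of F. The interaction test used all 18 libraries with steer as a term. Changes per steer are on TMM-scaled CPM plus 0.5. Other tools were DESeq2 1.42.0, Python 3.11.15, numpy 2.4.6, pandas 2.3.3, scipy 1.17.1 and matplotlib 3.10.9.

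Replicate numbers pair libraries because the study sampled the same 3 steers at each age. After removing age means, libraries at 20 and 30 months correlated at 0.115 on average for the same steer (0.0221 to 0.180) and at −0.0558 for different steers (−0.205 to 0.113), so the ranges overlapped. Removing age means ties the different-steer average to the same-steer one, so its negative sign is no separate evidence of pairing. No 2 libraries of a group were copies, with a chi-square per degree of freedom of at least 456 over 6 pairs.

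Named by rule are, of DE-miRNAs with 1 direction in all steers, the 10 of each direction lowest in FDR (ties by larger fold), the 6 largest gains and losses of mean CPM, members of the lists, *bta-miR-150*, *bta-miR-222*, *bta-miR-93* and *bta-miR-23a*, both arms of a hairpin with an arm called, the 5 smallest FDR of the interaction test and DE-miRNAs at 0 in an age. *bta-miR-1306*, *bta-miR-2285bt* and *candidate-miR-25* were named after their values were seen. The members and lists were chosen with earlier results of these data known. On simulated counts for this comparison, over 358 miRNAs, 24% of 100 miRNAs changed by 1 on the log2 scale and 72% of 100 changed by 2 were called. A change of 1 equals the fold threshold, so estimates that fell below it were not called at any FDR.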

Additional observations from a re-analysis of the deposited data

Results flagged for a closer look

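The change from 20 to 30 months differed between FC and EX for 25 of the 330 miRNAs selected in both, by the interaction term of the edgeR quasi-likelihood test with steer as a term. In 22 the log2 change was higher in FC, and in 3 it was lower. The smallest FDR belonged to *bta-miR-1249* (0.00057), *bta-miR-2285f* (0.00935), *bta-miR-2285q*, *bta-miR-2285am-5p* and *bta-miR-154c* (0.0165 each), and *candidate-miR-6* and *bta-miR-99a-3p* had the same FDR of 0.0165. *bta-miR-1249* stood at 64.4 ± 22.8 and 43.0 ± 12.9 CPM in FC (SD, n = 3) and at 75.3 ± 32.9 and 0 CPM in EX. In FC none of these but *candidate-miR-6* was called, and their EX libraries at 30 months were at 0, except 1 library of *bta-miR-154c*.

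With counts in each EX library at 30 months, the difference in FC minus EX was 1.19 on the log2 scale for *bta-miR-19a*, −0.95 for *bta-miR-320a*, −1.55 for *bta-miR-1246*, −3.90 for *bta-miR-181b*, 1.32 for *candidate-miR-40* and 1.37 for *bta-miR-197*. The *bta-miR-181b* value carries the limit given above, that its high EX libraries were those with *bta-miR-194* at 0. *bta-miR-320a*, a miRNA made without the nuclease Drosha, stood at 1938 ± 503 and 1735 ± 93.3 CPM in FC and at 2486 ± 491 and 6139 ± 1251 CPM in EX. The members *bta-miR-19a*, *bta-miR-320a*, *bta-miR-1246* and *bta-miR-197* were named here because of these values.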

How the results depend on the processing

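Against the 25 DE-miRNAs in FC, there were 53 with the likelihood ratio test of edgeR, 49 with DESeq2, 52 with no filter, 45 with CPM > 5 in all 9 libraries, 40 with a mean of at least 50 CPM and 2 with the rows as deposited. The other 6 alternatives that kept all steers gave 21 to 28, and leaving out 1 steer each gave 1 to 10. With rows as deposited the log2 fold changes reversed to −10.94 for *candidate-miR-40*, −4.53 for *candidate-miR-38* and 6.82 for *bta-miR-885*. Without the replicate block, that is, without pairing by steer, there were 27, of which 22 were shared, and *bta-miR-194*, *bta-miR-222* and *bta-miR-2285t* were not called. With the 6 libraries at 20 and 30 months alone, *bta-miR-340*, *bta-miR-29d-3p*, *bta-miR-2285t*, *bta-miR-6119-5p* and *candidate-miR-6* were not called. *bta-miR-29d-3p* and *bta-miR-2285t* were also lost with CPM > 1 in 3 libraries and with no filter, *bta-miR-2285t* with library totals only and thinning, *bta-miR-340* with DESeq2 and RLE size factors, and *bta-miR-92a* and *bta-let-7g* with RLE size factors. The 25 differences between FC and EX became 42 with DESeq2, 2 with a mean of at least 50 CPM (*bta-miR-1246* and *bta-miR-320a*), 61 with a replicate block by plasma sample, 29 with no replicate block, and 0 to 27 with 1 steer left out, the 0 by edgeR without steer 1 with 43 at an unadjusted p under 0.05. The number of selected miRNAs with a count above 0 changed on average by −21.7 (exact two-sided sign-flip test, p = 0.25, the smallest p possible), by −90.0 at CPM > 1 in 3 libraries, by −39.3 with rows as deposited, and by −26 to −14.5 with 1 steer left out. The ratio of *bta-miR-451* to *bta-miR-23a* ranged from −1.54 to −0.06 with 1 steer left out, and with *bta-miR-486* it was 1.04. The cause of these differences was not tested. The design has 3 steers, and recovery in simulated counts was low for changes of 1 on the log2 scale, which is also the fold threshold of a call.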
